A study of Homo sapiens with 24 samples.

Results

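The mitochondrial ribosomal protein genes are the nuclear genes whose symbols begin with MRPL, for the large subunit, or MRPS, for the small subunit. Members were the genes of the count table with such a symbol followed by digits and at most 1 final letter, without pseudogenes and with at least 50 reads over all libraries. The rule found 78 of 58051 genes, 49 of the large and 29 of the small subunit, and 0 genes with a matching symbol fell under 50 reads. MRPS24, the member nearest to that limit, had 103 reads, and MRPL38 came next with 575 reads.

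The 24 RNA sequencing libraries came from LUHMES neurons. LUHMES is a conditionally immortalised human midbrain line whose dividing precursors become post-mitotic, dopaminergic-type neurons under tetracycline, cAMP and GDNF. Exposure lasted 6 h, and each of the 8 groups had 3 libraries that the labels describe as triplicate biological samples. The compounds were 5 µM MS275 (entinostat, which blocks class I histone deacetylases), MPP (named 1-methyl-4-phenylpyridinium in its label) at 5 µM, Paraquat at 5 µM, 2 µM Ziram, 1 µM Rotenone (an inhibitor of respiratory complex I), 1 µM 6-HD (6-hydroxydopamine) and 0.5 µM Methyl_mercury, all set against 1% DMSO, the vehicle, which all of the other cultures received too as the solvent of the stocks. For Paraquat and MPP the labels contradict themselves. The CAS registry number given for Paraquat is that of tunicamycin, an inhibitor of N-glycosylation, and the number given for MPP is that of methylpiperidinopyrazole dihydrochloride, an oestrogen receptor antagonist that is also abbreviated MPP. Both groups are called by their label names here, and their values may concern those other compounds, which the files do not settle.

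Mitochondrial ribosomes translate the few proteins encoded in mitochondrial DNA, all of them core subunits of the respiratory chain and of ATP synthase. Their ribosomal RNAs are made in the mitochondrion, whereas every protein of both subunits is encoded in the nucleus, made in the cytosol and imported, so that assembly needs output from both genomes. Many of the proteins have a bacterial counterpart, and others exist only in mitochondria, where they took the place of shortened ribosomal RNA or anchor the ribosome to the inner membrane.

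Depth ranged from 9.69 to 46.9 megareads counted to genes per library. Of the 11 markers of dopaminergic neurons, 7 reached 1 CPM (counts per megaread of the scaled library total) in DMSO, with ALDH1A1, FOXA2 and LMX1B under 0.1 CPM, whereas all 11 pan-neuronal markers reached 1 CPM. The 78 genes held 2378074 reads, or 0.413% of all counts. Their 67 annotated pseudogenes held 2910 reads together, 0.122% of the members' reads, of which MRPL45P2, MRPS31P4 and MRPS31P5 had 2488.

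The members lay on 21 chromosomes, with 8 genes each on chromosomes 1, 2 and 17 and 7 on chromosome 11. The closest pair was MRPS11 and MRPL46 on chromosome 15, which start 33 bases apart and point away from each other. In the GENCODE 29 annotation of GRCh38, 41 members shared exon bases with another gene on either strand and 16 on their own strand, 7 of them over at least 20% of their exon bases. All of the 6 members with the fewest reads were among those 16, namely MRPS24, MRPL38, MRPL53, MRPS28, MRPL46 and MRPL12. Reads in shared exons can be left uncounted or given to the other gene, and, with the counting mode and strand setting not given in the sources used here, levels of these genes are uncertain. Their overlap was not tested as a source of the low counts. The same-strand partners of MRPS24, MRPL38, MRPS28, MRPL46 and MRPL12 held 0 reads, whereas CCDC142, that of MRPL53, held 4937.

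Short ETS and YY1 motifs occurred in a larger share of the members' promoters than of all promoters. RefSeq promoter windows of GRCh38.p14, 250 bases before to 50 after a transcript start, were matched by symbol for 69 of the 78 members and scanned on both strands. The letters CCGGAAG, which ETS factors such as GABPA (NRF2, a known activator of nuclear genes for mitochondria) bind, occurred for 30 of 69 members (43.5%), against 20.03% of 11805 tested genes and 12.2% of all 27305 genes with a window. The letters AAGATGGCG, bound by YY1, occurred for 13 members (18.8%), against 4.13% of the tested genes and 2.14% of all genes. Of the other motifs, the palindromic NRF1 motif occurred for 1 member (1.45%) against 2.42% of the tested genes, GGGCGG of SP1 for 42 (60.9%) against 74.1%, and TATAAA for 3 (4.35%) against 9.06%. The letters of the ETS and YY1 motifs can overlap at AAG, and all shares are descriptions without a test. In 4 members both the ETS and the YY1 motif occurred in the windows, at any distance, and 39 held either. In MRPL38, for example, they began at positions -208 and 7 from the start.

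Stretches of 80 bases before to 20 after the start are given for MRPS10 and MRPS18A, which hold both motifs. They are also given for MRPL16, MRPL18 and MRPL40, which hold the ETS motif, and for MRPS35, the transcript with the deepest fall with MS275, which holds neither. Of these genes MRPL40 was called higher with MS275 and the others lower. Capitals mark CCGGAAG, or CTTCCGG where it reads on the other strand, and AAGATGGCG.
MRPS10 (GRCh38.p14 chr6:42217842-42217941, minus strand): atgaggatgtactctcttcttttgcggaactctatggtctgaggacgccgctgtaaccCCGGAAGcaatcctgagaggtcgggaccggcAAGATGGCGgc
MRPS18A (GRCh38.p14 chr6:43687772-43687871, minus strand): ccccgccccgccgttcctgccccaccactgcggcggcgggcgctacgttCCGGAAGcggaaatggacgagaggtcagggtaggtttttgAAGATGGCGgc
MRPL16 (GRCh38.p14 chr11:59810759-59810858, minus strand): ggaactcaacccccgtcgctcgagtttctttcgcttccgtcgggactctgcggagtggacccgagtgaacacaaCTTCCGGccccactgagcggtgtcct
MRPL18 (GRCh38.p14 chr6:159790387-159790486, plus strand): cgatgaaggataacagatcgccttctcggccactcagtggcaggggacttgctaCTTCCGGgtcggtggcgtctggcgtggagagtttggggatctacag
MRPL40 (GRCh38.p14 chr22:19432465-19432564, plus strand): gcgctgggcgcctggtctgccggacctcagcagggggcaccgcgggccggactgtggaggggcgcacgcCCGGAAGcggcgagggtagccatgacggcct
MRPS35 (GRCh38.p14 chr12:27710752-27710851, plus strand): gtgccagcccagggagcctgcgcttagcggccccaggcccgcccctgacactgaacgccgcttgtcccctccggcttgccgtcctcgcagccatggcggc

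In these stretches the YY1 letters of MRPS10 and MRPS18A lay just after the start, and their ETS letters lay upstream of it. The ETS letters of MRPL16, MRPL18 and MRPL40 began at positions -6, -26 and -11 relative to it. A missing motif says only that these letters were not in the window.

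In vehicle-treated neurons the members differed widely in level per length. Levels between genes are given as CPM per kilobase of merged exons, with the SD over 3 libraries. The median over the 78 genes was 19.5 CPM per kilobase, with quartiles of 11.04 and 28.9, and it was 19.9 over the large and 15.9 over the small subunit. The highest levels were those of MRPS34, a protein found only in mitochondrial ribosomes, at 98.1 ± 4.97 CPM per kilobase, and of MRPS21, the counterpart of bacterial bS21, at 91.3 ± 2.97 CPM per kilobase (SD, n = 3).

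After these came MRPL14 (62.9 ± 3.37), MRPL47 (62.7 ± 3.07) and MRPL41 (61.9 ± 1.26 CPM per kilobase), which did not differ beyond their spread. MRPL14 is the counterpart of bacterial uL14 and MRPL47 that of uL29 at the exit of the peptide tunnel. MRPS26, a protein particular to mitochondria, reached 58.5 ± 3.49 CPM per kilobase. At the low end were MRPS24 with 0.0991 ± 0.0566, MRPL38 with 0.282 ± 0.108, MRPL46 with 1.03 ± 0.161, MRPL53 with 1.40 ± 0.118, MRPS18C with 2.32 ± 0.0471 and MRPS28 with 2.79 ± 0.198 CPM per kilobase. MRPS24, MRPL38, MRPL46, MRPL53 and MRPS28 are among the overlapped genes named above. The order depended on the length used. With the longest transcript in place of merged exons the level was over 1.5 times as high for 27 of the 78 genes, MRPL3 had 85.1 and MRPL51 76.7 CPM per kilobase, both above MRPL14, against 53.5 and 61.1 with merged exons, and MRPS28 reached 5.97. MRPS34 and MRPS21 kept the highest levels. The coefficient of variation over the 3 libraries had a median of 4.76% over the members.

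**Figure D1:**
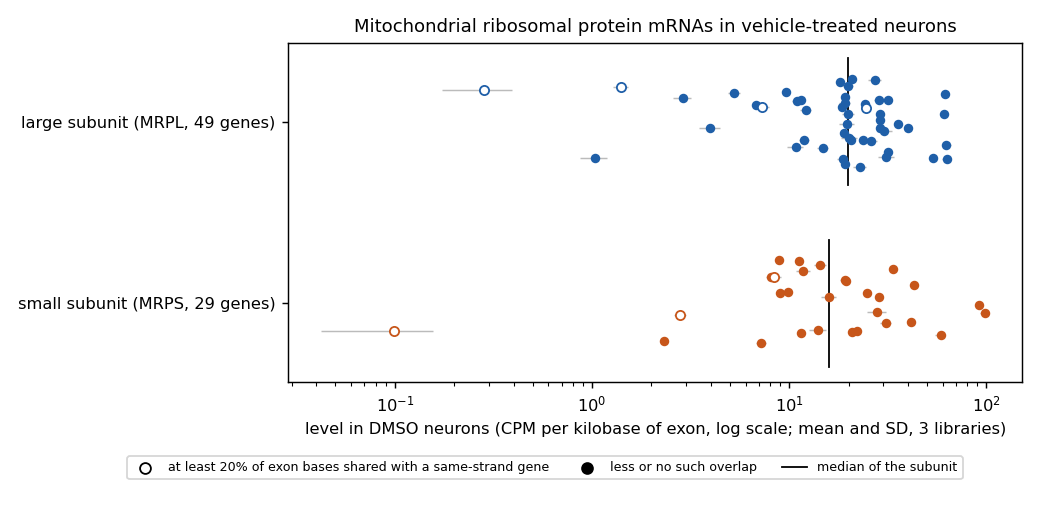
Level of each of the 78 genes in DMSO neurons, as CPM per kilobase of exon on a log scale, by subunit; points are means of 3 libraries, grey bars the SD, black lines the subunit medians (19.9 large, 15.9 small), and open points genes that share at least 20% of their exon bases with a gene on the same strand. The quartiles of the 78 genes are 11.04 and 28.9, and 2 of the 3 lowest, MRPS24 and MRPL38, are open points.

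Most mitochondrial ribosomal protein transcripts were lower after MS275. After the default expression filter, 77 members were tested, MRPS24 having too few reads. With MS275, 45 of 77 fell and 2 rose by the quasi-likelihood test of edgeR at a Benjamini-Hochberg adjusted p under 0.05 over 18852 genes, that is 58.4% lower and 2.60% higher. Of all genes tested, 23% were called lower, 20.1% higher and 43.2% in either direction. The median log2 fold change of the members was -0.36, against 0.04 over all genes. The 3 MS275 libraries lay below all 3 DMSO libraries for 52 members, 67.5% of them, against 27.5% of all genes. Of the fallen members, 2 fell by at least 1 on the log2 scale, 19 by 0.5 to 1 and 24 by less. The 30 members not called had fitted changes from -0.50 for MRPL46 and MRPL12 to 0.35 for MRPL23. In bulk RNA, fewer cells of a type and less RNA per cell cannot be told apart.

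The share of all counts that the 78 genes took together was 0.364%, 0.359% and 0.323% in the MS275 libraries, against a range of 0.419 to 0.425% in the DMSO libraries. The groups did not overlap, and the third MS275 library, which was also the shallowest of its group at 14.4 megareads, stood lowest. Without it, 39 members were called, and over each of the 6 libraries left out in turn the count ranged from 39 to 43.

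**Figure D2:**
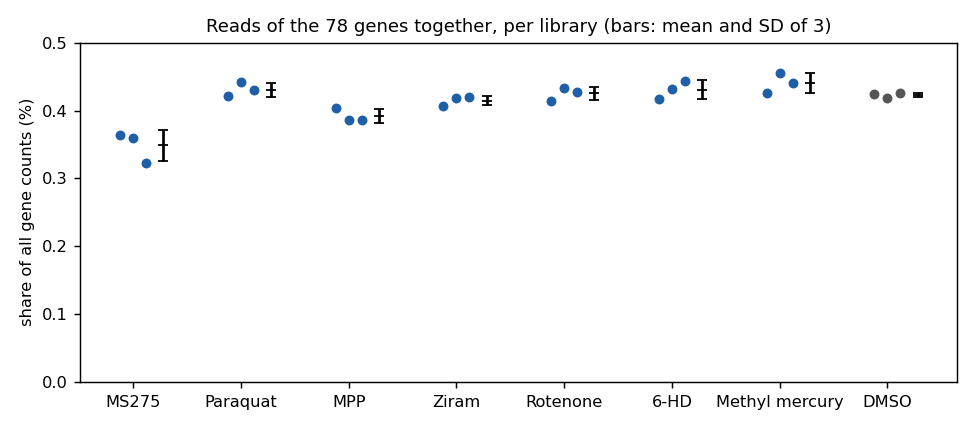
Share of all gene counts held by the 78 genes together, in percent, in each library (points) with the mean and SD of 3 libraries (bars), for the 7 compounds and DMSO. The 3 MS275 libraries, from 0.323 to 0.364%, lie below those of every other group, and the MPP libraries average 0.392 ± 0.0101%, against 0.423 ± 0.00346% in DMSO.

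Members of both subunits fell. In the large subunit 29 of 49 members fell and 1 rose, with a median log2 fold change of -0.36, and in the small subunit 16 of 28 fell and 1 rose, with a median of -0.34. The difference of the medians, large minus small, was -0.03. It was -0.09 with MRPS18A and MRPS30, which sit in the large subunit despite their names, counted there. MRPS36, which is not a ribosomal protein, stayed counted in the small subunit. The difference was 0.01 without the expression filter, so that its sign depended on the genes counted.

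MRPS35, a protein of the small subunit found in mitochondria and not in bacteria (chr12:27710773-27756295), fell the most. It had 36.3, 35.6 and 35.2 CPM with MS275, against 81.5, 79.8 and 84.9 CPM with DMSO. The MS275 libraries were close to one another and all far below DMSO, a log2 fold change of -1.20 ± 0.08 (SE), or 0.435-fold (edgeR adjusted p = 1.2e-12).

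Among the large subunit proteins with bacterial counterparts, MRPL22, which lines the tunnel through which the new peptide leaves (chr5:154941070-154969411), had 7.39, 6.57 and 6.10 CPM with MS275, against 13.8, 14.8 and 16.8 CPM with DMSO. All MS275 values were below all DMSO values, a change of -1.18 ± 0.17 (edgeR adjusted p = 2.1e-06). MRPL9, the counterpart of bL9 (chr1:151759643-151763564), had 13.9, 12.9 and 15.6 CPM with MS275, against 27.3, 24.7 and 28.2 CPM with DMSO. Its libraries did not overlap either, a change of -0.93 ± 0.11 (edgeR adjusted p = 6.58e-08), and 38.5% of its exon bases lie in exons of other genes. MRPL16, the counterpart of uL16 near the peptidyl transferase centre (chr11:59806135-59810872), had 25.998, 26.7 and 18.6 CPM with MS275, against 44.5, 40.4 and 45.3 CPM with DMSO. The third MS275 library was the lowest, and all 3 were under DMSO, a change of -0.86 ± 0.12 (edgeR adjusted p = 7.28e-07).

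MRPL18, the counterpart of uL18 in the central protuberance (chr6:159789812-159798436), had 34.8, 36.5 and 32.4 CPM with MS275, against 56.6, 54.0 and 54.6 CPM with DMSO, a change of -0.67 ± 0.09 (edgeR adjusted p = 1.1e-06). Its groups did not overlap. MRPL39, particular to mitochondria, changed by -0.78 ± 0.12 (edgeR adjusted p = 5.69e-06), and MRPL13 by -0.78 ± 0.09 (edgeR adjusted p = 9.09e-08). MRPL15 changed by -0.71 ± 0.10 (edgeR adjusted p = 1.08e-06), MRPL4, the other protein of the tunnel wall, by -0.69 ± 0.15 (edgeR adjusted p = 0.000392), and MRPL11, at the base of the stalk that recruits translation factors, by -0.63 ± 0.13 (edgeR adjusted p = 0.000165). These 10 were the largest falls among the members called, and each stayed called with any 1 of the 6 libraries left out.

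The 3 members whose names no longer fit their place, MRPS30, MRPS36 and MRPS18A, fell. MRPS30, a large subunit protein, had 50.9, 53.7 and 65.6 CPM with MS275, against 95.6, 85.1 and 78.8 CPM with DMSO, a change of -0.61 ± 0.10 (edgeR adjusted p = 5.99e-06). The groups stood apart, although the values spread widely within each. MRPS36, now known as a subunit of the 2-oxoglutarate dehydrogenase complex and not of the ribosome, had 32.9, 32.1 and 30.4 CPM with MS275, against 48.6, 43.9 and 49.3 CPM with DMSO, a change of -0.57 ± 0.10 (edgeR adjusted p = 1.6e-05). Of the 3 relatives of bacterial bS18, MRPS18C changed by -0.50 ± 0.17 (edgeR adjusted p = 0.0183) and MRPS18A, which sits in the large subunit, by -0.38 ± 0.14 (edgeR adjusted p = 0.0267). MRPS18B, at -0.22 ± 0.10, was not called (edgeR adjusted p = 0.0707). Genes on the opposite strand overlap 47.0% of the exon bases of MRPS18A and 40.2% of those of MRPS18C. The MRPS18C call was lost without DMSO replicate 2 (0.0593), DMSO replicate 3 (0.0566) or MS275 replicate 1 (0.0552), and the MRPS18A call without DMSO replicate 1 (0.109), MS275 replicate 2 (0.0730) or MS275 replicate 3 (0.128), and with RLE size factors, the scaling of DESeq2 (0.0552). The 2 members with the highest levels per length differed: MRPS34 changed by -0.52 ± 0.14 (edgeR adjusted p = 0.00266), and MRPS21, at -0.14 ± 0.09, was not called (edgeR adjusted p = 0.199).

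The 2 transcripts that rose with MS275 were MRPS27 and MRPL40. MRPS27, a pentatricopeptide repeat protein of the small subunit (chr5:72219409-72320646), had 97.2, 113 and 96.6 CPM with MS275, against 84.2, 71.8 and 74.2 CPM with DMSO. All MS275 libraries were above all DMSO libraries, a change of 0.42 ± 0.08 (edgeR adjusted p = 0.000128). It was the only member of the 77 with that separation, which 28.1% of all genes showed. MRPL40, a large subunit protein particular to mitochondria (chr22:19431902-19436075), had 55.5, 46.5 and 40.7 CPM with MS275, against 42.0, 37.9 and 37.0 CPM with DMSO, a change of 0.29 ± 0.11 (edgeR adjusted p = 0.0344). The groups overlapped, and the call was lost without DMSO replicate 2 (0.0874), DMSO replicate 3 (0.111), MS275 replicate 1 (0.238) or MS275 replicate 2 (0.0602), and without the expression filter (0.112).

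Members that fell and those that did not had close shares of the promoter motifs. The ETS letters occurred for 17 of 40 fallen members with a window (42.5%) and for 13 of 28 tested members that did not fall (46.4%). The YY1 letters occurred for 7 of 40 (17.5%) and 5 of 28 (17.9%). By subunit, the ETS letters occurred for 18 of 42 genes of the large and 12 of 27 of the small subunit.

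**Figure D3:**
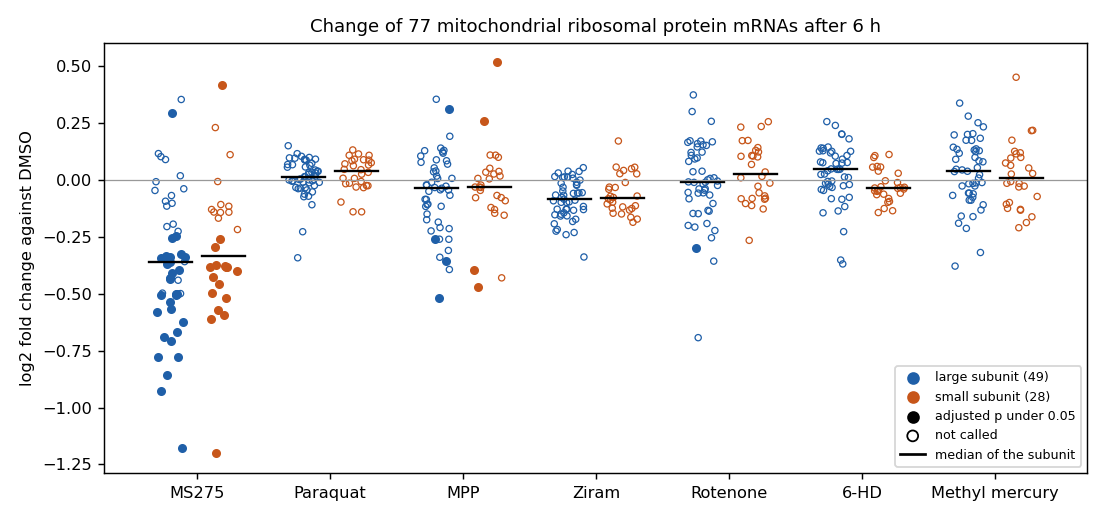
Log2 fold change against DMSO of the 77 members tested, by compound and subunit, with filled points for an edgeR adjusted p under 0.05, open points for members not called and black lines for subunit medians. With MS275 most points lie below 0, with medians of -0.36 and -0.34, and with every other compound the medians lie between -0.09 and 0.05.

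Other genes of the same machinery were called with MS275 as well, set beside 23% lower and 20.1% higher of all genes. Of 5 mitoribosomal proteins with other names, 3 fell (60%) and 0 rose, with a median log2 fold change of -0.26. PTCD3, a pentatricopeptide repeat protein of the small subunit, averaged 79.1 ± 4.05 CPM with MS275 and 114 ± 4.70 CPM with DMSO (SD, n = 3 each), a change of -0.53 ± 0.09 (edgeR adjusted p = 1.47e-05). DAP3, a GTP-binding small subunit protein, averaged 83.0 ± 7.74 CPM with MS275 and 106 ± 2.14 CPM with DMSO, a change of -0.35 ± 0.08 (edgeR adjusted p = 0.0009). CHCHD1 changed by -0.26 ± 0.10 (edgeR adjusted p = 0.0328), and its call was lost without DMSO replicate 2 (0.0854), DMSO replicate 3 (0.139), MS275 replicate 2 (0.0708) or MS275 replicate 3 (0.113). It was also lost with RLE size factors (0.0974), library totals (0.0533), a stricter filter (0.0678) and DESeq2 (0.0809).

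Of 25 genes for assembly and for modification of the ribosomal RNA, 8 fell (32%) and 1 rose (4%), with a median of -0.23. In all 36% of them were called, fewer than the 43.2% of all genes. FASTKD2, needed for the large ribosomal RNA, averaged 43.2 ± 0.526 CPM with MS275 and 74.9 ± 3.05 CPM with DMSO, a change of -0.79 ± 0.10 (edgeR adjusted p = 3.08e-07). RPUSD4, a pseudouridine synthase acting on the same RNA, changed by -0.73 ± 0.10 (edgeR adjusted p = 8.89e-07), DDX28, a helicase of large subunit assembly, by -0.58 ± 0.16 (edgeR adjusted p = 0.00514), and NOA1, a GTPase of small subunit assembly, by -0.48 ± 0.15 (edgeR adjusted p = 0.00853). Of 18 translation factors, 9 fell (50%) and 0 rose, with a median of -0.26. MTRF1, of the release factor family, averaged 4.27 ± 0.452 CPM with MS275 and 8.88 ± 0.996 CPM with DMSO, a change of -1.05 ± 0.19 (edgeR adjusted p = 3.54e-05). GFM1, the elongation factor G that moves the ribosome along, changed by -0.70 ± 0.12 (edgeR adjusted p = 2.41e-05), TACO1, an activator of COX1 translation, by -0.68 ± 0.14 (edgeR adjusted p = 0.000276), and GFM2, which recycles ribosomes, by -0.44 ± 0.10 (edgeR adjusted p = 0.000601). The 2 mitochondrial ribosomal RNAs, MT-RNR1 and MT-RNR2, were not called, with changes of 0.23 ± 0.14 (edgeR adjusted p = 0.173) and 0.27 ± 0.17 (edgeR adjusted p = 0.207). The libraries had been depleted of ribosomal RNA, so their reads are what that step left.

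Of 10 regulators of nuclear genes for mitochondria, 6 fell (60%) and 3 rose (30%). PPARGC1A, the coactivator PGC-1α, averaged 14.2 ± 1.41 CPM with MS275 and 7.46 ± 0.297 CPM with DMSO, a change of 0.93 ± 0.18 (edgeR adjusted p = 9.12e-05). PPARGC1B, its relative, changed by 0.54 ± 0.14 (edgeR adjusted p = 0.00269), and PPRC1, the third of that family, by -0.65 ± 0.16 (edgeR adjusted p = 0.00156). MYC changed by 0.85 ± 0.31 (edgeR adjusted p = 0.0296), at 5.81 ± 0.691 CPM with MS275 and 3.23 ± 0.360 CPM with DMSO, and its call was lost without DMSO replicate 1 (0.0605), DMSO replicate 2 (0.1002), DMSO replicate 3 (0.0504) or MS275 replicate 1 (0.0962). The list thus held changes in both directions.

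Mitochondrial ribosomes complete complex I with their own products. Of 38 genes with the symbol of a nuclear complex I subunit, NDUFA4 included, 13 fell (34.2%) and 0 rose with MS275, with a median of -0.12. NDUFS3 changed by -0.62 ± 0.09 (edgeR adjusted p = 2.11e-06) and NDUFS1 by -0.58 ± 0.07 (edgeR adjusted p = 1.35e-07), both core subunits. Of 80 cytosolic ribosomal proteins tested, 14 rose, 17.5% against 20.1% of all genes, and 0 fell, with a median of 0.15. The share that rose was near the background. RPS7, of their small subunit, changed by 0.26 ± 0.07 (edgeR adjusted p = 0.00526).

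**Figure D4:**
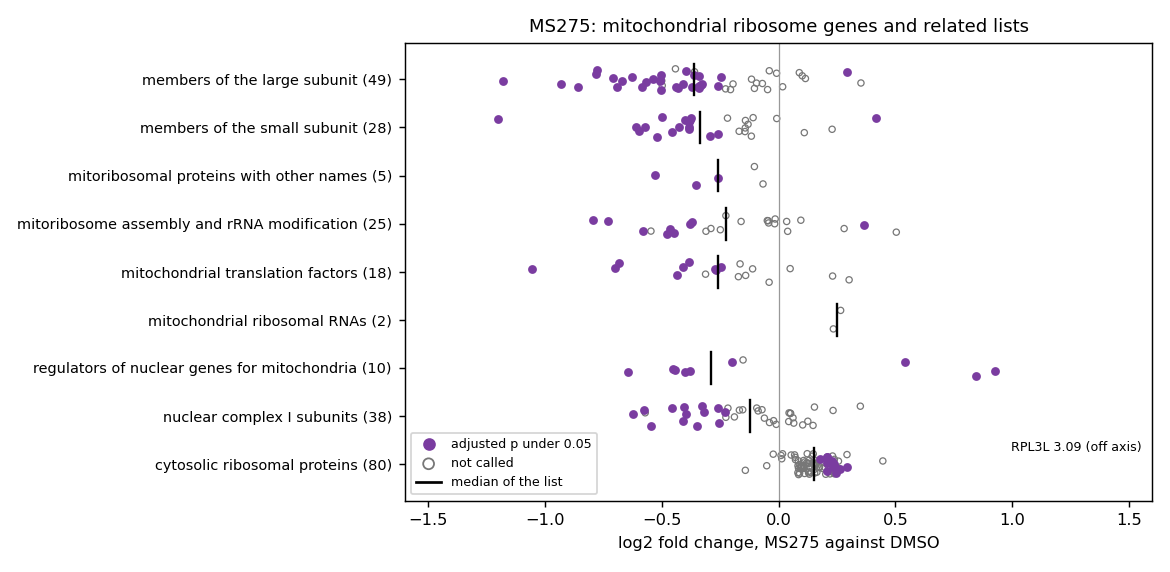
Log2 fold change of MS275 against DMSO for each gene of the 2 subunits and of related lists (number tested in parentheses), with filled points for an edgeR adjusted p under 0.05 and black lines for the median of a list. Medians run from -0.36 and -0.34 in the subunits to -0.12 for genes with complex I subunit symbols, 0.15 for cytosolic ribosomal proteins and 0.25 for the 2 mitochondrial ribosomal RNAs.

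Some markers of cell types moved with MS275 as well. For the counts below, 23% of all genes tested were called lower with MS275 and 20.1% higher. Summed over the 8 markers of cycling cells, levels were 342 to 399 CPM with MS275 and 396 to 448 CPM with DMSO, with 5 markers lower. The 6 neural precursor markers summed to 228 to 253 CPM with MS275 and 141 to 170 CPM with DMSO, with 5 higher. The 9 markers of astrocytes and oligodendrocytes summed to 164 to 188 CPM with MS275 and 132 to 145 CPM with DMSO, with 6 of 7 tested higher. In DMSO 5 of the 9 reached 1 CPM, whereas GFAP and MOG were under 0.1 CPM in both groups. The 11 markers of dopaminergic neurons summed to 1043 to 1256 CPM with MS275 and 654 to 773 CPM with DMSO, and the pan-neuronal ones to 7332 to 8576 CPM with MS275 and 7014 to 8419 CPM with DMSO. The part of any of these in the fall of the ribosomal protein transcripts was not tested. Some of the shifts were not particular to MS275. With Rotenone the dopaminergic markers summed to 900 to 1245 CPM and the precursor markers to 226 to 261 CPM. The cycling markers summed to 415 to 467 CPM with Rotenone, and the members' median log2 fold change was -0.0054.

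MPP changed single members, in both directions. With MPP 5 members fell and 3 rose, 10.4% of 77. Of all genes, 10.8% were called, 5.02% lower and 5.77% higher, so that the members' share was near the background. The medians of log2 fold change were -0.03 over the members and 0.0017 over all genes. MT-RNR1 and MT-RNR2 rose with MPP by 2.22 ± 0.14 (edgeR adjusted p = 6.43e-12) and 2.22 ± 0.17 (edgeR adjusted p = 3.23e-10). Together they took 5.47 ± 1.25% of counts with MPP and 1.25 ± 0.295% with DMSO. Scaled by library totals alone, which those reads enter, 8 members fell and 1 rose, with a median of -0.12 against -0.09 over all genes. Their part in the members' values was not tested otherwise.

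MRPS16, a small subunit protein with a bacterial counterpart (chr10:73248843-73252693), had 88.3, 93.2 and 91.2 CPM with MPP, against 121, 122 and 117 CPM with DMSO. The groups stood well apart, a change of -0.40 ± 0.07 (edgeR adjusted p = 0.000433). MRPS33, particular to mitochondria (chr7:141002610-141015228), had 35.6, 34.1 and 42.7 CPM with MPP, against 50.6, 53.0 and 51.8 CPM with DMSO, again without overlap, a change of -0.47 ± 0.10 (edgeR adjusted p = 0.00129). MRPS2, the counterpart of uS2 (chr9:135499984-135504673), had 39.8, 38.2 and 40.5 CPM with MPP, against 28.5, 26.3 and 28.2 CPM with DMSO. Every MPP library was higher, a change of 0.52 ± 0.13 (edgeR adjusted p = 0.00632). These 3 calls held with any 1 of the 6 libraries left out.

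The other 5 calls were lost in some or all of the 6 fits that left out a library, although their fitted changes kept their sign. Over all genes, calls also dropped in those fits, from 1088 higher and 946 lower to 612 to 799 higher and 518 to 641 lower. MRPL24, of the tunnel exit, changed by -0.52 ± 0.15 (edgeR adjusted p = 0.0194), and the call was lost without DMSO replicate 2 (0.121), MPP replicate 2 (0.0918) or MPP replicate 3 (0.0903). MRPL40 had 33.8, 28.9 and 28.2 CPM with MPP, against 42.0, 37.9 and 37.0 CPM with DMSO, a change of -0.36 ± 0.11 (edgeR adjusted p = 0.0382), and its call held only without MPP replicate 1 and was lost with each of the other 5 left out (up to 0.174). MRPL42 had 239, 235 and 251 CPM with MPP, against 205, 184 and 195 CPM with DMSO, a change of 0.31 ± 0.09 (edgeR adjusted p = 0.015), lost without DMSO replicate 2 (0.0945) or MPP replicate 3 (0.0647). MRPL30 at -0.26 ± 0.08 (edgeR adjusted p = 0.0284) and MRPS35 at 0.26 ± 0.08 (edgeR adjusted p = 0.028) lost their calls whichever of the 6 libraries was left out, with adjusted p up to 0.102 and 0.121. With library totals alone MRPL42 (0.102) and MRPS35 (0.198) were not called, in the same direction. Without the expression filter MRPL40 (0.0623), MRPL30 (0.146) and MRPS35 (0.152) were not called either.

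Among the related lists, GFM2 changed by -0.58 ± 0.10 with MPP (edgeR adjusted p = 0.000159), at 64.1 ± 2.07 CPM with MPP and 95.8 ± 0.850 CPM with DMSO. It was the only one of the 18 translation factors to fall, and LRPPRC, which stabilises mitochondrial messages, was the only one to rise, by 0.25 ± 0.07 (edgeR adjusted p = 0.0193), a call lost without DMSO replicates 1 (0.112) or 2 (0.0620) or MPP replicates 2 (0.0930) or 3 (0.0722), with library totals (0.171) and without the filter (0.0655). Of the assembly genes 2 of 25 fell and 0 rose, of genes with complex I subunit symbols 2 of 38 fell, and of 80 cytosolic ribosomal proteins 0 were called. Of the 10 regulators 3 rose and 1 fell, 40% against 10.8% of all genes called. GABPB1, a subunit of the ETS factor GABP, averaged 80.3 ± 4.62 CPM with MPP and 105 ± 1.11 CPM with DMSO, a change of -0.38 ± 0.07 (edgeR adjusted p = 0.000568) that held with any 1 of the 6 libraries left out. PPARGC1A at 0.57 ± 0.18 (edgeR adjusted p = 0.0348), PPARGC1B at 0.50 ± 0.14 (edgeR adjusted p = 0.0209) and YY1 at 0.27 ± 0.07 (edgeR adjusted p = 0.0126) rose. These 3 calls were lost with library totals (0.0802, 0.0688 and 0.114) and in 5, 4 and 3 of the 6 fits that left out a library, with adjusted p up to 0.139, 0.115 and 0.0587.

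MS275 and MPP moved some members apart. Set against the same DMSO libraries, MRPS35, MRPL42 and MRPS2 were called lower with MS275 and higher with MPP, MRPL40 was called higher with MS275 and lower with MPP, and MRPS16 and MRPL30 were called lower with each. Since these comparisons share the DMSO libraries, the compounds were also compared directly. With MS275 against MPP, 41 of 77 members were lower (53.2%) and 5 higher (6.49%), against 25.9% lower, 24.9% higher and 50.8% called of all genes, with a median of -0.31 over the members and 0.06 over all genes.

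MRPS35 had 36.3, 35.6 and 35.2 CPM with MS275, against 99.8, 94.7 and 100 CPM with MPP, the widest gap of any member (-1.46 ± 0.08, edgeR adjusted p = 1.28e-14). MRPS2 had 20.9, 23.03 and 19.4 CPM with MS275, against 39.8, 38.2 and 40.5 CPM with MPP (-0.90 ± 0.13, edgeR adjusted p = 7.39e-07). MRPL42 had 155, 156 and 179 CPM with MS275, against 239, 235 and 251 CPM with MPP (-0.57 ± 0.09, edgeR adjusted p = 2.01e-06). For all 3 the MS275 libraries lay below every MPP library.

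MRPL40 differed the other way, with 55.5, 46.5 and 40.7 CPM with MS275, against 33.8, 28.9 and 28.2 CPM with MPP (0.65 ± 0.11, edgeR adjusted p = 1.72e-05), and no overlap. MRPS33 (0.46 ± 0.10, edgeR adjusted p = 0.000185) and MRPS27 (0.38 ± 0.08, edgeR adjusted p = 0.000262) were also higher with MS275. MRPS16, lower with both compounds, had 92.2, 95.9 and 88.4 CPM with MS275, against 88.3, 93.2 and 91.2 CPM with MPP, and the difference of 0.02 ± 0.07 was not called (edgeR adjusted p = 0.835). MRPL30 was lower with MS275 than with MPP (-0.32 ± 0.08, edgeR adjusted p = 0.0012). Against DMSO the MS275 calls of MRPL42 and MRPS2 were near the threshold (edgeR adjusted p of 0.015 and 0.0155), and reached 0.104 and 0.0612 with 1 library left out. The MRPL42 call was also lost with RLE size factors (0.0631) and DESeq2 (0.0566).

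**Figure D5:**
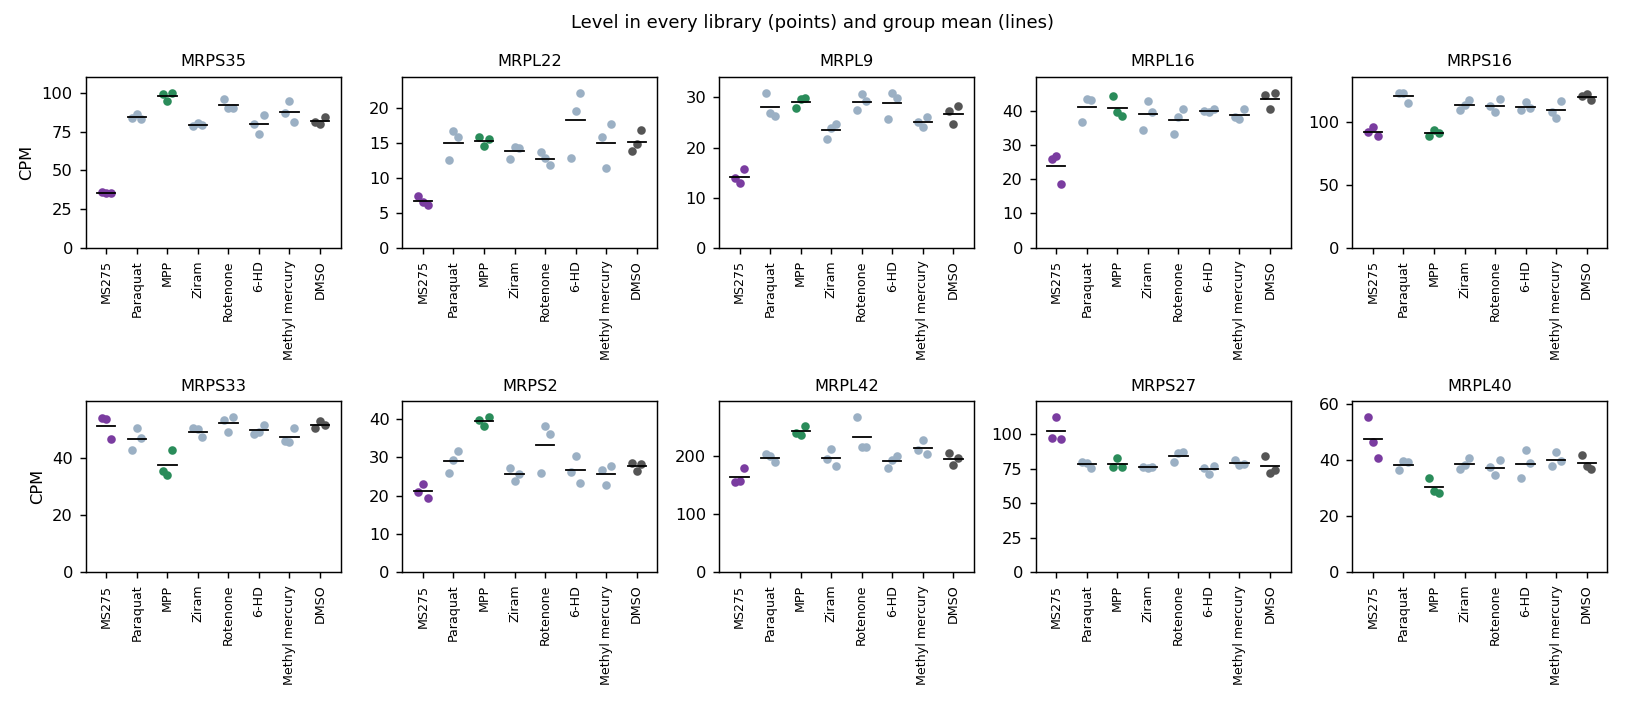
CPM in each of the 24 libraries (points) and group means (lines) for 10 members, with the 7 compounds to the left of DMSO. MRPS35, MRPL22, MRPL9 and MRPL16 have their lowest values with MS275, and MRPL9 also lies below every DMSO library with Ziram, where it was not called. MRPS16 is low with MS275 and MPP, and MRPS33 is low with MPP. MRPS2 and MRPL42 are high with MPP and low with MS275, and MRPS27 is high with MS275. With Rotenone, where neither was called, MRPL42 has 267, 215 and 216 CPM, above every DMSO library, and MRPS2 has 25.8, 38.1 and 36.0 CPM.

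MPP was also compared with Paraquat at the same dose and time. With MPP 7 members were lower and 2 higher than with Paraquat, 11.7% of 77. Of all genes, 11% were called, 4.94% lower and 6.04% higher, so that the members' share was again near the background. MRPS16 had 88.3, 93.2 and 91.2 CPM with MPP, against 123, 123 and 115 CPM with Paraquat, a change of -0.40 ± 0.07 (edgeR adjusted p = 0.000386). The libraries did not overlap, and MRPS16 was the one member whose call held whichever library was left out. The other 8 calls, among them MRPS17 at -0.54 ± 0.16 (edgeR adjusted p = 0.024) and MRPS2 at 0.45 ± 0.12 (edgeR adjusted p = 0.0183), were each lost on leaving out at least 3 of the 6 libraries in turn, and 1 to 5 members were called per fit.

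Rotenone, the complex I inhibitor, changed 1 member. MRPL35, a large subunit protein with a bacterial counterpart (chr2:86199355-86213794), had 92.1, 87.5 and 87.5 CPM with Rotenone, against 116, 110 and 103 CPM with DMSO. The groups did not overlap, a change of -0.30 ± 0.09 (edgeR adjusted p = 0.0461), and 1 of 77 is 1.299%, against 5.52% of all genes called, 2.76% in each direction. The call was lost in 5 of 6 fits that left out a library (adjusted p up to 0.175) and with RLE size factors (0.0628), and held without Rotenone replicate 1, when 5 members were called, 3 of them higher. Without that library 799 of 19650 genes were called higher and 817 lower, against 521 and 520 of 18852 with all libraries. The other 5 fits called 244 to 419 genes higher and 239 to 479 lower. With all libraries MRPL38 had the largest fitted change, -0.69 ± 0.53, at 0.41 to 0.735 CPM with Rotenone and 0.621 to 1.41 CPM with DMSO, and was not called (edgeR adjusted p = 0.503). Of the cytosolic ribosomal proteins 15 of 80 rose with Rotenone and 0 fell.

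With Paraquat, Ziram, 6-HD and Methyl_mercury 0 members were called by edgeR, by DESeq2 or by limma-voom. Of all genes, edgeR called 0.0% with Paraquat, 0.53% with Ziram, 0.0106% with 6-HD and 0.286% with Methyl_mercury. At an unadjusted edgeR p under 0.05 there were 0 members with Paraquat, 2 with Ziram, 4 with 6-HD and 7 with Methyl_mercury. Of all genes, 0.965% with Paraquat, 6.49% with Ziram, 5.7% with 6-HD and 11.5% with Methyl_mercury had such a p, so that the members' shares were near or under the background. Their medians of log2 fold change were 0.02 with Paraquat, -0.08 with Ziram, -0.0042 with 6-HD and 0.03 with Methyl_mercury.

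With Ziram the values leaned to one side although no member passed the test. Of the 77 members 60 had a log2 fold change below 0, against 9211 of 18852 genes. The members ranged from -0.34 for MRPL53 to 0.17 for MRPS6, and the all-gene median was 0.01. For 21 members, 27.3%, all 3 Ziram libraries lay below all 3 DMSO libraries, against 10.2% of all genes. MRPL30, the member with the lowest unadjusted p, had 79.4, 83.3 and 79.9 CPM with Ziram, against 93.6, 92.4 and 89.4 CPM with DMSO, a change of -0.18 ± 0.08 (edgeR adjusted p = 0.637). The 80 cytosolic ribosomal proteins had a median of -0.12 with Ziram and 0 calls. Separated libraries were not particular to Ziram. All Methyl_mercury libraries lay above all DMSO libraries for 15 members, 19.5% against 9.90% of all genes, and below for 7, 9.09% against 9.95%. All MPP libraries lay below DMSO for 18 members, 23.4% against 17.5% of all genes, and above for 7, 9.09% against 18.8%.

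The subunits were compared in each exposure. The median of the large minus that of the small subunit was 0.08 with 6-HD, where 30 of 49 large subunit members were above 0 and 20 of 28 small subunit members below, and it ranged from -0.04 to 0.03 with the other 6 compounds against DMSO. With each library left out in turn the 6-HD difference ranged from 0.06 to 0.11. Centred on each gene's mean, the difference in single libraries was 0.01, 0.10 and 0.04 with 6-HD, against 0.02, 0.02 and 0.03 with DMSO. The first 6-HD library was under all 3 DMSO libraries and the other two were above them.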

How the data were processed

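RNA sequencing counts of 24 libraries were used. The submitters' processing notes name STAR, HTSeq, DESeq and the build GRCh38, with versions, annotation, strand setting and counting mode not given in the sources used here. Raw counts per gene, deposited by the authors, were analysed, and their normalized matrix was not used here. Of 58051 gene identifiers, 57447 were in GENCODE 29, which gave positions and lengths.

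The counts were fitted with edgeR 4.0.16 (R 4.3.3): TMM scaling, genes passing filterByExpr (18852 kept), 1 coefficient per group over 24 libraries (16 residual degrees of freedom), the quasi-likelihood F test, and p-values adjusted by Benjamini and Hochberg over all genes per comparison at 0.05. Replicate numbers were not used to pair the samples. An SE is the size of the log2 fold change divided by the square root of F. The spread behind the p-values is that between samples of a group, pooled over the 8 groups. DESeq2 1.42.0, limma 3.58.1 (voom), other scalings, other filters, a replicate block, the 2 groups alone and each library left out were alternatives. The procedure was tested on simulated counts. Promoters were scanned with Python 3.11.15 (pandas 2.3.3, numpy 2.4.6), and figures were drawn with matplotlib 3.10.9.

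The members, lists and tests were chosen with earlier results of these data known. The related lists were mitoribosomal proteins with other names, assembly and RNA modification genes, translation factors, ribosomal RNAs, regulators, complex I subunits by symbol, cytosolic ribosomal proteins and cell type markers. Named members were up to 10 higher and 10 lower per comparison among those called, the 3 highest and 3 lowest per length in each subunit, those nearest to 50 reads, MRPS18A, MRPS18B, MRPS18C, MRPS30 and MRPS36; from other lists up to 4 called genes per comparison. MRPL3, MRPL12, MRPL51, MRPS6, MRPS10, MRPS11 and, in comparisons where they were not called, MRPL12, MRPL23, MRPL30, MRPL38, MRPL46, MRPL53, MRPS16 and MRPS21 were named after their values were seen.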

Additional observations from a re-analysis of the deposited data

How the results depend on the processing

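The MS275 result kept its direction under the alternatives run: 42 to 49 members were called against DMSO, and 39 to 43 with a library left out. The smaller counts moved. For MPP against DMSO they were 5 without the expression filter, 13 with the 2 groups alone and 3 to 6 with a library left out; for Rotenone 0 without the filter, with limma-voom and with the 2 groups alone, 2 with a stricter filter, 3 with DESeq2, 1 with RLE size factors, which was higher where MRPL35, lower, was no longer called, and 0 to 5 with a library left out; for MPP against Paraquat 5 without the filter and 1 to 5 with a library left out. The causes were not tested. With the replicate number as a block, 47 members were called with MS275, 7 with MPP, 0 with Rotenone, 44 for MS275 against MPP and 8 for MPP against Paraquat. Deviations of same-numbered samples from their group means correlated between -0.0647 and 0.113 over the genes kept. Sampling noise weakens such correlations, so they cannot exclude pairing or a shared batch. The large minus small subunit difference was 0.0147 without the filter and -0.092 with MRPS18A and MRPS30 moved for MS275, 0.0102 with limma-voom and 0.00888 with both moved for Ziram, 0.0459 without the filter, 0.0584 with limma-voom and 0.00959 with both moved for Methyl_mercury, and -0.0131 without the filter and -0.0873 with both moved for MS275 against MPP. With a library left out it ranged from -0.0475 to 0.00205 (MS275), -0.0241 to 6e-06 (Paraquat), -0.0393 to -0.00242 (MPP), -0.0289 to 0.0192 (Ziram), -0.0771 to 0.00196 (Rotenone), 0.0571 to 0.106 (6-HD), 0.00306 to 0.0869 (Methyl_mercury), -0.0716 to -0.00198 (MS275 against MPP) and -0.0334 to 0.0350 (MPP against Paraquat). Scaling by library totals moved the share of higher calls over all genes to 27.5%, against 53.5% with TMM, for MPP, to 59.0%, against 48.97%, for MS275 against MPP, and to 26.5%, against 55.0%, for MPP against Paraquat; for MS275 against MPP it moved the all-gene median to 0.17, against 0.06. Of the members, MRPS24 was too low to test, and changes of MRPL38, MRPL53, MRPL46 and MRPL12 had an SE of at least 0.22.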
